A study of Mus musculus with 6 samples.

Results

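The genes described here encode the subunits of RNA polymerases I, II and III, of the Mediator complex, and the TBP-associated factors (TAFs). They were defined by gene symbol. Their symbols start with Polr plus 1, 2 or 3 and a letter from a to l, or with Med or Taf plus a digit. This set and its size classes were chosen with earlier results of these data known. Of 19937 genes measured, 80 were members: 26 Polr, 30 Med and 24 Taf genes. All 80 were tested, because no filter on low signal was used.

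Polysomal RNA, pooled over gradient fractions, came from #483, 1 clone of mouse T-cell leukaemia (T-ALL) on a C57BL6 background. Cells in 3 samples had received 100 µM 4EGI-1 over 2 h, a compound that keeps the initiation factor eIF4E from joining its partner eIF4G, and 3 samples were titled untreated. The treatment protocol gives DMSO as the alternative to 4EGI-1, and it is unclear whether the samples titled untreated contained it. The question is how the relative amounts of these mRNAs on polysomes differed after 4EGI-1. Only polysomal RNA is analysed here, so a change in the amount of an mRNA and a change in its loading on polysomes cannot be told apart, nor can fewer cells of a type and less RNA per cell. Values are log2 array signals, with 1 array per sample, and every difference is 4EGI-1 minus untreated on that scale. Each value is relative to its own array, so a change in total polysomal RNA is not measured.

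RNA polymerase I makes the large ribosomal RNA precursor, RNA polymerase II makes mRNA, and RNA polymerase III makes tRNA and other short RNAs. Each enzyme has a pair of very large subunits that together form the active site, surrounded by many smaller subunits, some of which are shared between the enzymes. Mediator bridges activators and RNA polymerase II and is divided into head, middle, tail and a dissociable kinase module. TAFs surround TBP in TFIID, which recognises the promoter, and a separate set forms SL1 with TBP at ribosomal RNA promoters. For the comparison within complexes, the catalytic polymerase subunits, the large Mediator subunits (Med1, Med12, Med12l, Med13, Med13l, Med14, Med23 and Med24) and the large TFIID subunits (Taf1, Taf2, Taf3, Taf4 and Taf4b) formed a large class of 19 genes. The remaining 53 subunits of these complexes formed the other class, and 8 members (SL1 TAFs, TAF paralogues outside TFIID, Taf15 and Taf7l2) had no class.

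After 4EGI-1, mRNAs of the catalytic subunits of all 3 polymerases had higher relative signals in polysomal RNA. Those of many smaller subunits of the same enzymes and of TFIID had lower ones. In limma, at a Benjamini-Hochberg adjusted p under 0.05, 13 of the 80 members rose, 30 fell and 37 did not pass. Over all genes 22.9% were called, 11.5% higher and 11.5% lower, against 16.2% higher and 37.5% lower among the members. Members were brighter, with a median untreated log2 signal of 9.37 against 6.65 over all genes. Their shares were not compared with those of genes of similar signal. In the large class 11 of 19 rose, 2 fell and 6 did not pass, with a median log2 difference of 0.25. Within it the median was 0.76 for the 6 catalytic polymerase subunits. It was 0.03 for the 8 large Mediator subunits and 0.01 for the 5 large TFIID subunits. In the other class 1 of 53 rose, 28 fell and 24 did not pass, with a median of -0.29. The median over all genes was -0.03. These counts and medians are descriptions, since genes of a class are not replicates.

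**Figure D1:**
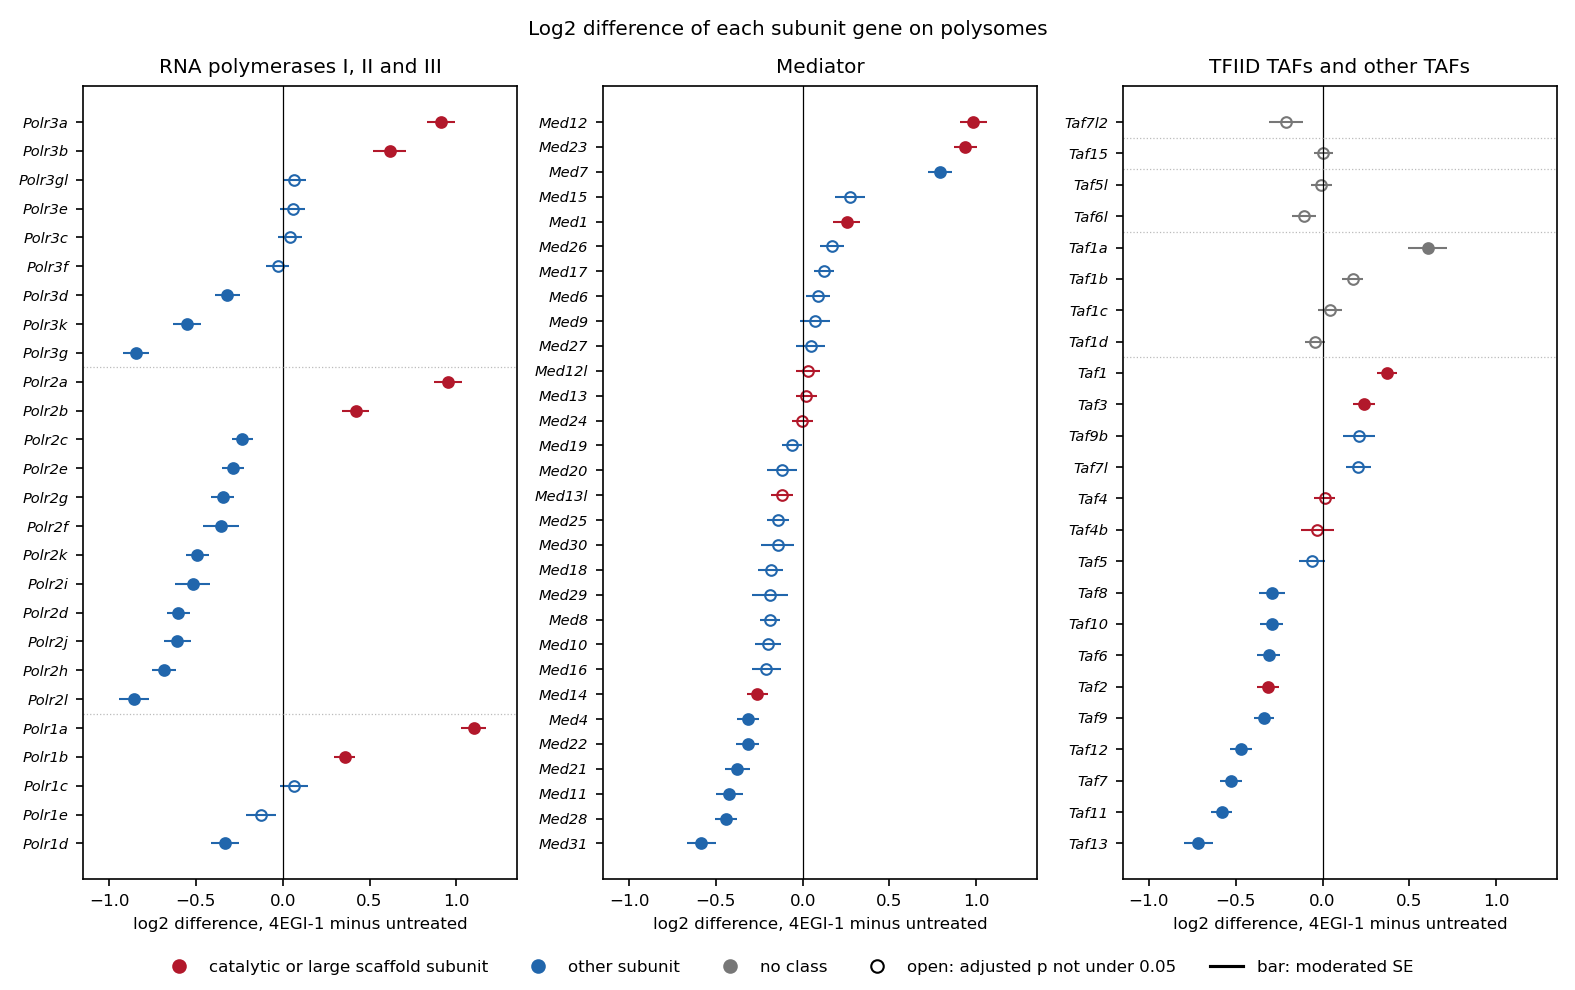
Log2 difference (4EGI-1 minus untreated, x axis) of each of the 80 members, with the moderated standard error as a bar, in panels for the polymerases, Mediator and the TAFs. Red marks the large class (labelled catalytic or large scaffold), blue other subunits, grey members with no class, and open points did not pass. All 6 catalytic polymerase subunits lie right of 0, and all 10 other subunits named Polr2 lie left of it.

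The direction was the same in each treated sample. Relative to each gene's untreated mean, the class median of the large subunits was 0.36, 0.20 and 0.26 in 4EGI-1 replicates 1, 2 and 3, and -0.04, 0.02 and 0.01 in the untreated replicates. For the other subunits it was -0.22, -0.27 and -0.29 with 4EGI-1 and -0.02, 0.01 and 0.00 without. The median over all genes was -0.05, -0.01 and -0.01 in the treated samples. Treated and untreated values were fully separated in 18 members that were higher and 37 that were lower with 4EGI-1, against 17% and 20.8% of all genes and 37.9% of all genes in either direction.

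**Figure D2:**
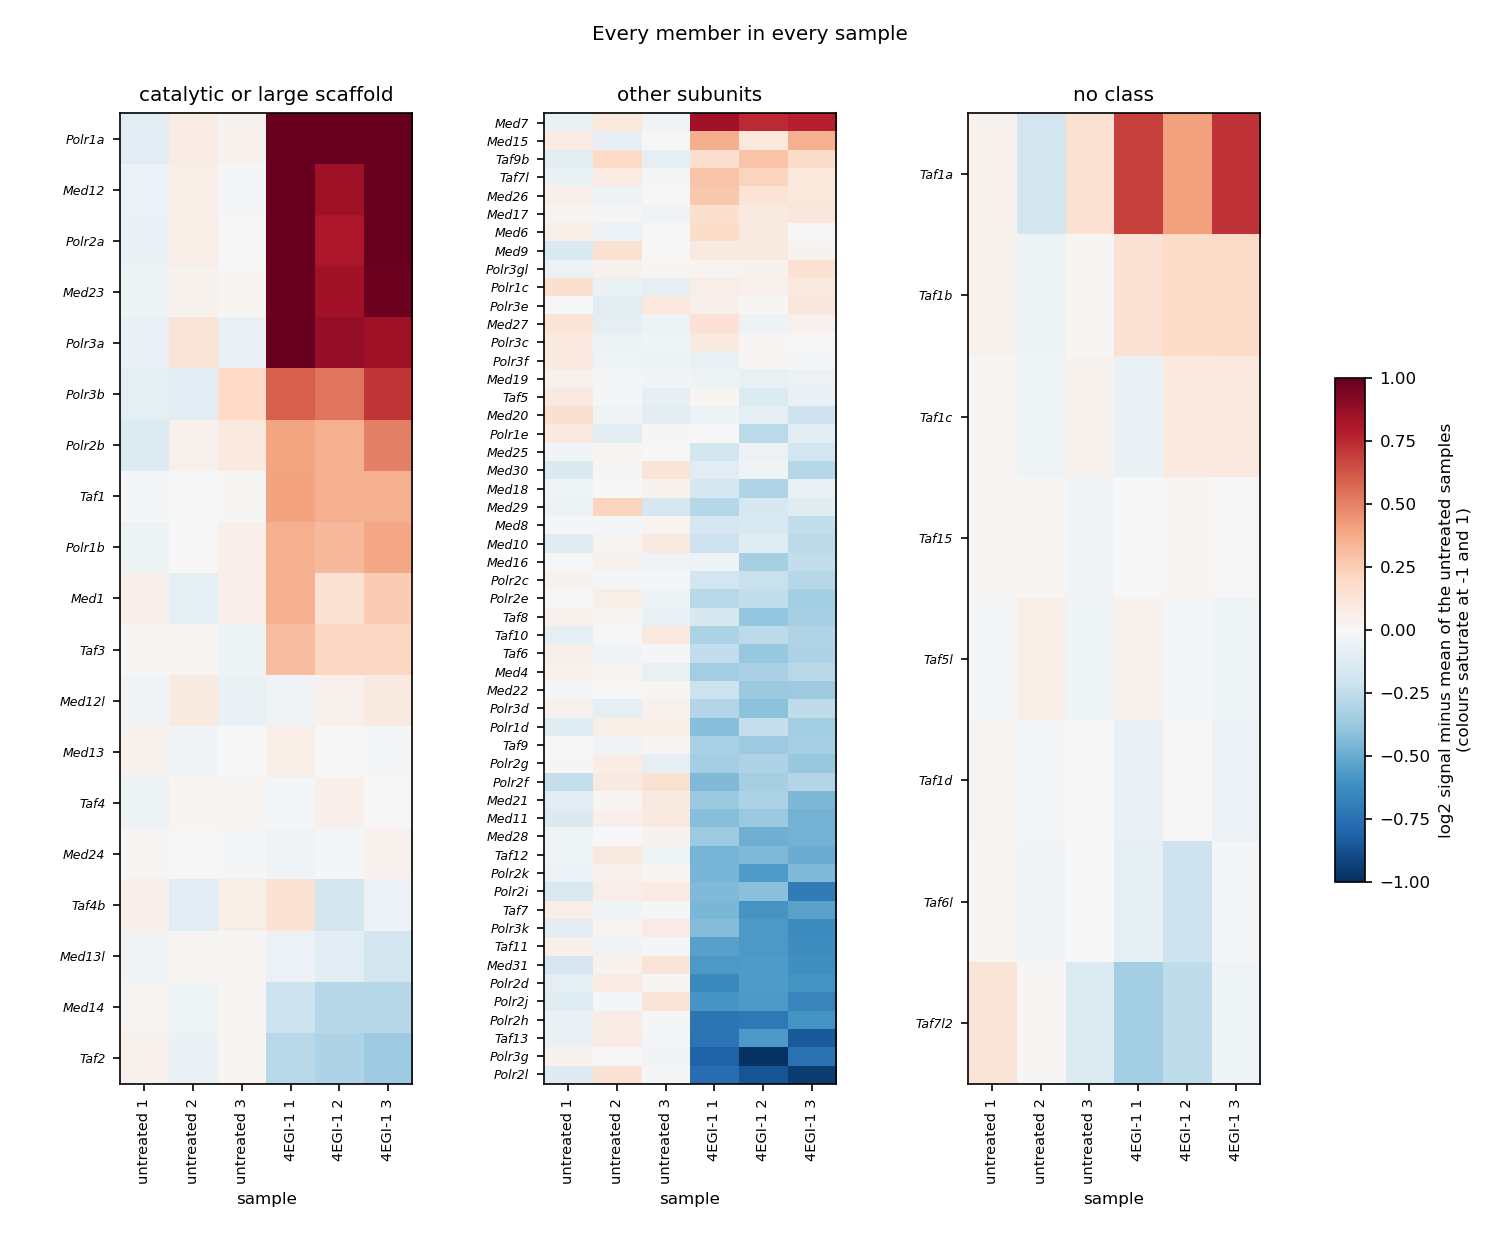
Log2 signal of every member in each of the 6 samples (columns), relative to the mean of the 3 untreated samples, with members (rows) ordered by difference within the large class, the other class and those with no class. The upper rows of the large class are red in all 3 treated samples, and the lower rows of the other class are blue in all 3.

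**Figure D3:**
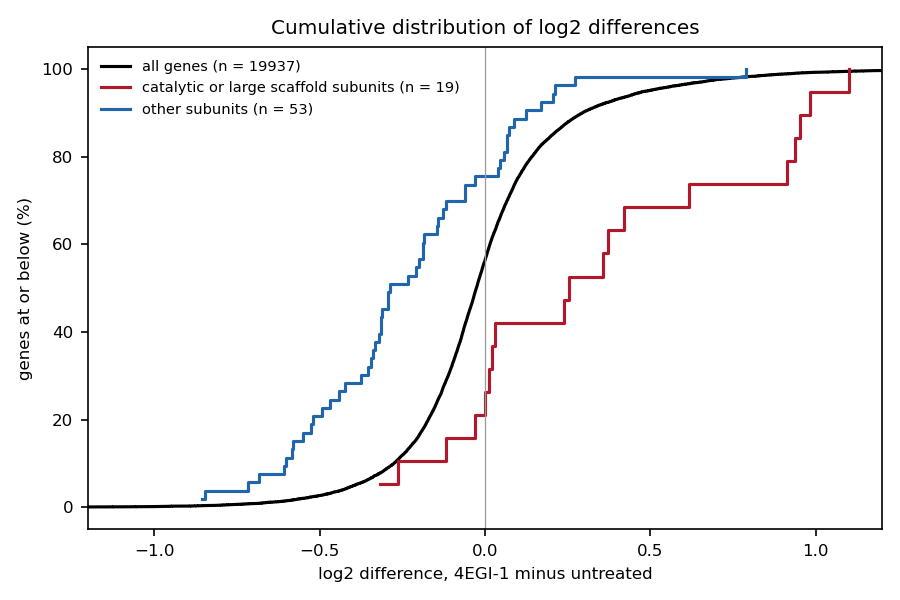
Cumulative percentage of genes (y axis) at or below each log2 difference (x axis) for all 19937 genes, the 19 large subunits and the 53 other subunits. The curve of the large subunits lies to the right of all genes over most of its range, with a median of 0.25, and that of the other subunits to the left, with a median of -0.29.

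The core promoters of members that moved in opposite directions can be set side by side. RefSeq promoters (assembly GRCm38.p6, 250 bases before to 50 after the annotated start) were matched by symbol for 68 of the 80 members. The letters CCGGAAG, the core of the motif bound by ETS-family transcription factors, were searched on both strands. A common form of the promoter element recognised by TBP, with the letters TATAAA, was searched in the same way. CCGGAAG was in 24 of 68 members (35.3%) against 9.93% of the 27025 genes in the promoter table. A gene counted if any of its annotated promoters matched, and the 27025 genes were not limited to those measured or expressed here. It was in 4 of 11 members that rose, 9 of 24 that fell and 11 of 33 that did not pass, so members of both directions carried it. TATAAA was in 10 of 68 members (14.7%) against 15.7% of all genes. The TISU element, found near the start of mRNAs with very short leaders, was in 2 members (Taf4 and Taf5) against 0.755% of all genes. A match is a description of these windows, not a site. The 120 bases before the annotated start are shown, 5′ to 3′ on the gene's strand, for 7 members, with CCGGAAG (or its reverse complement) and TATAAA in capitals. Polr1a and Polr2l are shown for the largest increase and decrease among the members, and hold neither motif in this stretch, nor do Med12, Med31 and Taf1, which are not printed. The other 5 were picked because they hold a motif, so the set does not show how common the motifs are. Polr1a lies at chr6:71908933-71909052 (plus strand), Polr2l at chr7:141475154-141475273 (minus strand), Polr3b at chr10:84622178-84622297 (plus strand), Polr2a at chr11:69758634-69758753 (minus strand), Polr3g at chr13:81711014-81711133 (minus strand), Polr2j at chr5:136116571-136116690 (plus strand) and Taf13 at chr3:108571579-108571698 (plus strand). Polr1a, Polr3b and Polr2a rose and Polr2l, Polr3g, Polr2j and Taf13 fell.
Polr1a: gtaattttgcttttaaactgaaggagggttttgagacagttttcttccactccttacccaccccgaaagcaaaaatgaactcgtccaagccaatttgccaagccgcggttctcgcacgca
Polr2l: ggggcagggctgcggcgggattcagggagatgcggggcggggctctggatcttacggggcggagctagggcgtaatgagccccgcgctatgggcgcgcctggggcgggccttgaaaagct
Polr3b: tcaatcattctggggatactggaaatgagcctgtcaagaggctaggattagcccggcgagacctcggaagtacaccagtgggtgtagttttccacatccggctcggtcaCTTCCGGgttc
Polr2a: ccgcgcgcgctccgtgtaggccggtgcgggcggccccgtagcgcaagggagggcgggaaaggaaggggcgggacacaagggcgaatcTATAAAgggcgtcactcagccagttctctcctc
Polr3g: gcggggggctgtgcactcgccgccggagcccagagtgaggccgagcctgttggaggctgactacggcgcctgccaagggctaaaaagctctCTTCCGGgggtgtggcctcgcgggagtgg
Polr2j: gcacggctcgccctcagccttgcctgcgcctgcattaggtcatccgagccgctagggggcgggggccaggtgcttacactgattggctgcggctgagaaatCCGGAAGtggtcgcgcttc
Taf13: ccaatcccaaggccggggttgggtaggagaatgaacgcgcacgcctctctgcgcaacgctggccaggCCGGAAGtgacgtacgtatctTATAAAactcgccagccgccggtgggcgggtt

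All 6 catalytic polymerase subunits rose, with a median log2 difference of 0.76. Polr1a, which encodes the largest subunit of RNA polymerase I, gave log2 signals of 8.65, 8.84 and 8.80 in the untreated samples and 9.81, 9.84 and 9.93 with 4EGI-1. It rose by 1.10 ± 0.07 (SE; adjusted p = 6.99e-05), a 2.15-fold increase and the largest change in either direction among the 80 members. Its partner in the active site, Polr1b, read 8.48, 8.54 and 8.58 untreated and 8.89, 8.86 and 8.92 treated, and rose by 0.36 ± 0.06 (adjusted p = 0.0035). For both genes every treated sample lay above every untreated one.

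Polr2a encodes the largest subunit of RNA polymerase II, whose repetitive tail is phosphorylated during transcription. Its signals were 10.33, 10.46 and 10.40 untreated and 11.42, 11.20 and 11.42 treated, a rise of 0.95 ± 0.08 (SE; adjusted p = 0.000136), or 1.94-fold. Polr2b, the second active-site subunit, read 10.57, 10.75 and 10.80 untreated and 11.10, 11.07 and 11.22 treated, and rose by 0.42 ± 0.08 (adjusted p = 0.00631). In RNA polymerase III, Polr3a read 8.28, 8.48 and 8.28 untreated and 9.35, 9.23 and 9.20 treated, a rise of 0.91 ± 0.08 (adjusted p = 0.000164). Polr3b, its partner, read 8.80, 8.78 and 9.08 untreated and 9.48, 9.42 and 9.61 treated, and rose by 0.62 ± 0.10 (adjusted p = 0.00246). No treated value of these 4 genes fell within the untreated range. In each of the 3 enzymes the largest subunit had the larger estimate of the pair; that difference was not tested.

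Of the 20 other polymerase subunits 0 rose in limma, 14 fell and 6 did not pass, with a median of -0.34. At an unadjusted p under 0.05, too, 0 were higher, but Polr3e passed as higher with its 2 probe sets averaged (0.28; adjusted p = 0.0165). On the brightest probe set all 10 remaining subunits named Polr2 fell, from -0.23 for Polr2c to -0.86 for Polr2l, with a median of -0.51. They comprise 5 subunits of RNA polymerase II alone (median -0.52) and 5 that all 3 enzymes share (median -0.49). With its 2 probe sets averaged, Polr2c was at -0.15 and did not pass (limma adjusted p = 0.13).

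Among the shared subunits, Polr2l read 8.60, 8.87 and 8.71 untreated and 7.97, 7.86 and 7.78 treated and fell by 0.86 ± 0.09 (SE; adjusted p = 0.000329), to 0.552 times its untreated level. Polr2h read 11.19, 11.33 and 11.24 untreated and 10.53, 10.54 and 10.65 treated and fell by 0.68 ± 0.07 (adjusted p = 0.000314). Polr2k read 9.35, 9.45 and 9.42 untreated and 8.94, 8.84 and 8.97 treated and fell by 0.49 ± 0.07 (adjusted p = 0.00114). Each of these groups was separated from the other by more than its own range. Polr2e fell by 0.29 ± 0.06 (adjusted p = 0.0115). Polr2f fell by 0.35 ± 0.11 (adjusted p = 0.0437), and its call depended on which samples were kept. The adjusted p was 0.00717, 0.133 and 0.135 without untreated replicates 1, 2 and 3. It was 0.124, 0.0888 and 0.0679 without 4EGI-1 replicates 1, 2 and 3.

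Among subunits of RNA polymerase II alone, Polr2j and Polr2c form the pair on which the enzyme assembles. Polr2j read 10.56, 10.66 and 10.81 untreated and 10.09, 10.10 and 10.01 treated and fell by 0.61 ± 0.08 (SE; adjusted p = 0.000904). Polr2c fell by 0.23 ± 0.06 (adjusted p = 0.0248); the call ended without untreated replicates 1, 2 and 3 (adjusted p = 0.0764, 0.0631 and 0.0618) and without 4EGI-1 replicates 2 and 3 (0.0562 and 0.0867). Polr2d and Polr2g form the stalk near the RNA exit. Polr2d read 9.55, 9.72 and 9.65 untreated and 8.995, 9.08 and 9.04 treated and fell by 0.60 ± 0.07 (adjusted p = 0.000525), and Polr2g fell by 0.34 ± 0.07 (adjusted p = 0.00675). Polr2i, which contributes to the fidelity of the enzyme, read 8.89, 9.11 and 9.13 untreated and 8.61, 8.63 and 8.34 treated and fell by 0.52 ± 0.10 (adjusted p = 0.00659).

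The subunits of RNA polymerase III were divided. Of 7 other subunits, 3 fell and 4 did not pass, with a median of -0.03. Polr3g read 9.51, 9.48 and 9.45 untreated and 8.68, 8.49 and 8.74 treated and fell by 0.85 ± 0.08 (SE; adjusted p = 0.000194), to 0.557 times its untreated level. Its paralogue Polr3gl, which takes the same place in an alternative form of the enzyme, differed by 0.07 ± 0.07 (adjusted p = 0.542); the difference between the paralogues was not tested. Polr3k, a small subunit needed for RNA cleavage and termination, read 11.01, 11.16 and 11.21 untreated and 10.70, 10.56 and 10.49 treated and fell by 0.55 ± 0.08 (adjusted p = 0.0019). Polr3d fell by 0.32 ± 0.07 (adjusted p = 0.0131; 0.0521 without untreated replicate 3). Polr3e (0.06), the partner of Polr3d, and Polr3c (0.04) and Polr3f (-0.03), the partners of Polr3g, did not pass.

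Few smaller RNA polymerase I subunits were measured under the symbols of the rule. Polr1d, an assembly subunit shared by RNA polymerases I and III, fell by 0.33 ± 0.08 (SE; adjusted p = 0.0182). The adjusted p of Polr1d was 0.0655 and 0.0669 without untreated replicates 2 and 3, and 0.0601 and 0.0523 without 4EGI-1 replicates 1 and 3. Its assembly partner Polr1c differed by 0.07 ± 0.08 (adjusted p = 0.629), and Polr1e, found in RNA polymerase I only, by -0.13 ± 0.09 (adjusted p = 0.378).

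**Figure D4:**
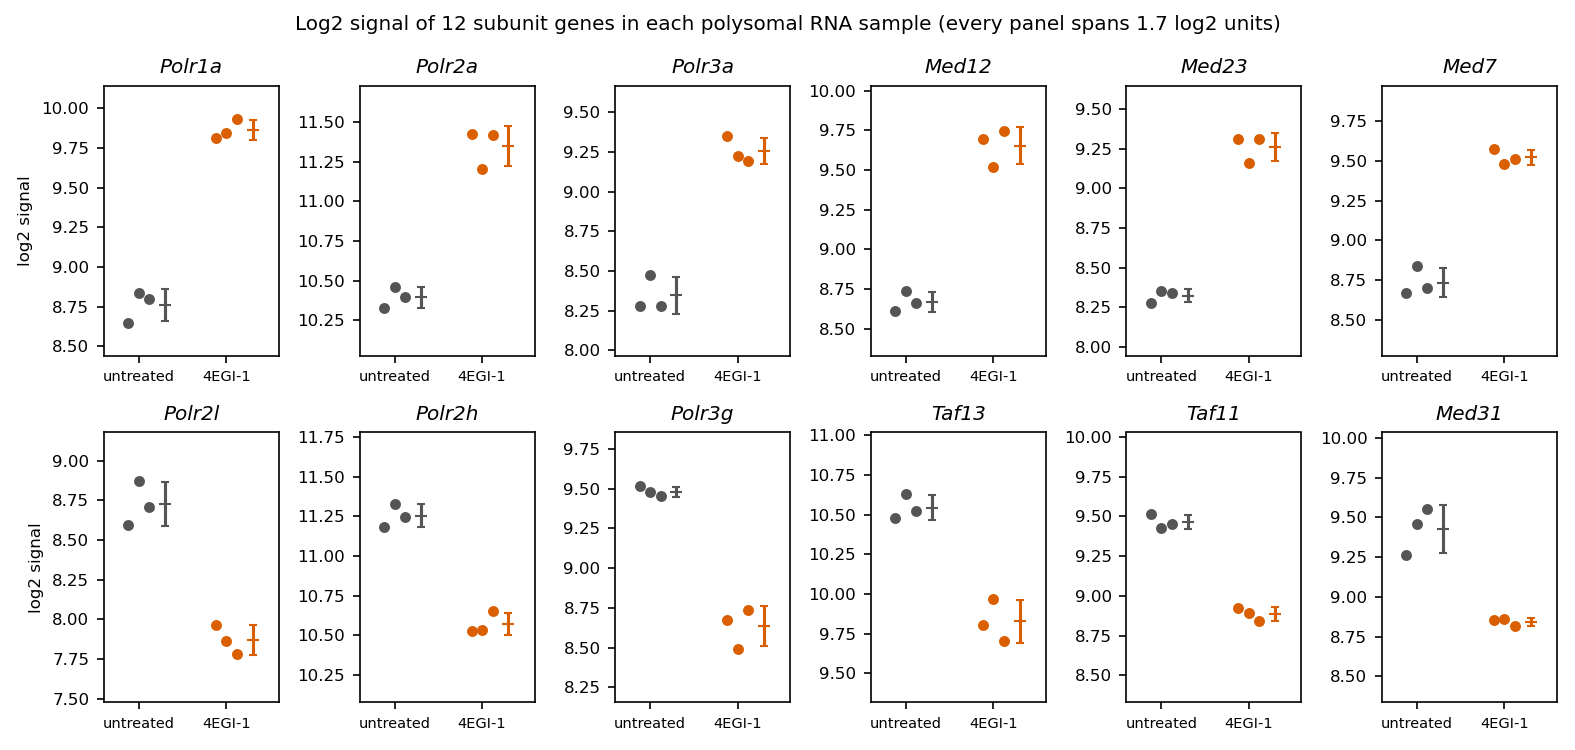
Log2 signal (y axis, each panel spanning 1.7 log2 units) of 12 members in the 3 untreated and 3 4EGI-1 samples, each sample a point, with the mean and SD beside them. In the upper row every treated sample lies above every untreated one, by most for Polr1a, and in the lower row below, by most for Polr2l and Polr3g.

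Of 30 Mediator genes 4 rose (13.3%), 7 fell (23.3%) and 19 did not pass, against 11.5% higher and 11.5% lower over all genes. Of its 8 large subunits 3 rose, 1 fell and 4 did not pass (median 0.03), and of 22 others 1 rose, 6 fell and 15 did not pass (median -0.16). Med12, which activates the kinase of the kinase module, read 8.61, 8.74 and 8.66 untreated and 9.70, 9.52 and 9.75 treated, a rise of 0.98 ± 0.08 (SE; adjusted p = 0.00012), or 1.98-fold. Med23, a tail subunit contacted by activators, read 8.28, 8.35 and 8.34 untreated and 9.31, 9.16 and 9.31 treated and rose by 0.94 ± 0.07 (adjusted p = 8.71e-05). Both groups of values were tight and far apart. Med13, which tethers the kinase module to the core, differed by 0.02 ± 0.06, its paralogue Med13l by -0.12 ± 0.06, the Med12 paralogue Med12l by 0.03 ± 0.07 and the tail subunit Med24 by 0.00 ± 0.06, and none of these 4 passed.

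Med1, the contact of nuclear receptors, read 10.08, 9.93 and 10.08 untreated and 10.39, 10.18 and 10.29 treated, and rose by 0.25 ± 0.08 (SE; adjusted p = 0.0496). That call stood at the threshold: it ended without untreated replicates 1, 2 and 3 (adjusted p = 0.0847, 0.152 and 0.081), without 4EGI-1 replicates 1 and 3 (0.142 and 0.11), with every probe set tested (0.0506), with arrays centred on their median (0.0661) and with array weights (0.0501). Med14, the backbone that joins head, middle and tail, went the other way from most large subunits. It read 11.77, 11.71 and 11.76 untreated and 11.53, 11.46 and 11.47 treated and fell by 0.26 ± 0.06 (adjusted p = 0.014; 0.0523 without untreated replicate 3).

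The middle module held the 1 smaller subunit of the 53 that rose. Med7 read 8.67, 8.84 and 8.70 untreated and 9.58, 9.48 and 9.51 treated, a rise of 0.79 ± 0.07 (SE; adjusted p = 0.000171). Its middle-module neighbours Med31, Med21 and Med4 fell. Med31 read 9.26, 9.46 and 9.56 untreated and 8.85, 8.86 and 8.82 treated and fell by 0.58 ± 0.08 (adjusted p = 0.00154), Med21 fell by 0.38 ± 0.07 (adjusted p = 0.00709) and Med4 by 0.32 ± 0.06 (adjusted p = 0.00792). Med7 thus had the opposite direction to Med31 and Med21, with which it is known to form the core of this module. Of 7 head subunits 0 rose in limma, also at an unadjusted p under 0.05, and 2 fell, Med11 by 0.42 ± 0.08 (adjusted p = 0.00551) and Med22 by 0.32 ± 0.07 (adjusted p = 0.0102). Of the 7 smaller tail subunits 1 fell, Med28, by 0.44 ± 0.06 (adjusted p = 0.00166).

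The 15 smaller Mediator subunits that did not pass ranged from -0.21 for Med16 to 0.27 for Med15, an activator-binding tail subunit. Med15 lay close to the threshold (adjusted p = 0.0565) and passed in 7 of the alternative fits, among them the fit with the replicate number as a block (0.035) and the fit without 4EGI-1 replicate 2 (0.0172). Med8 (-0.19; adjusted p = 0.0553) passed in 5. The Mediator kinase enzymes, which are not members, gave 0 of 3 higher and 1 lower: the kinase gene Cdk8 fell by 0.25 ± 0.06 (SE; adjusted p = 0.0181), while Ccnc, its cyclin, was at -0.20 (adjusted p = 0.103) and Cdk19 at -0.08.

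In TFIID, 2 of 5 large subunits rose, 1 fell and 2 did not pass (median 0.01). Of the 11 other subunits 8 fell, 0 rose in limma and 3 did not pass (median -0.31), and 2 were higher at an unadjusted p under 0.05 (Taf7l and Taf9b). Taf1, the largest TAF, which binds acetylated histones, read 10.62, 10.65 and 10.65 untreated and 11.04, 10.99 and 11.00 treated, and rose by 0.37 ± 0.06 (SE; adjusted p = 0.00217). Taf3, which reads methylated histone H3, rose by 0.24 ± 0.06 (adjusted p = 0.0264), with adjusted p of 0.0581, 0.0576 and 0.0953 without untreated replicates 1, 2 and 3, and 0.0837 and 0.0537 without 4EGI-1 replicates 1 and 3. Taf2, which contacts the initiator sequence, fell by 0.32 ± 0.06 (adjusted p = 0.00771). The scaffold gene Taf4 differed by 0.01 ± 0.06 and its paralogue Taf4b by -0.03 ± 0.10.

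Many smaller TAFs carry histone folds and sit in TFIID as pairs, and both partners of several pairs fell. Taf13 read 10.48, 10.63 and 10.52 untreated and 9.80, 9.97 and 9.71 treated and fell by 0.72 ± 0.08 (SE; adjusted p = 0.000587). Its partner Taf11 read 9.52, 9.43 and 9.45 untreated and 8.92, 8.89 and 8.84 treated and fell by 0.58 ± 0.06 (adjusted p = 0.000368). The members of the pair Taf6 and Taf9 fell by 0.31 ± 0.06 (adjusted p = 0.00972) and 0.34 ± 0.06 (adjusted p = 0.00354). Taf12, the partner of Taf4, fell by 0.47 ± 0.06 (adjusted p = 0.0013), whereas Taf4 did not pass.

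Taf7, a regulator of Taf1, read 8.15, 8.04 and 8.07 untreated and 7.63, 7.50 and 7.55 treated and fell by 0.53 ± 0.07 (SE; adjusted p = 0.000825), while Taf1 rose. Taf8 and Taf10, which pair with each other, gave less stable calls. Taf8 fell by 0.29 ± 0.08 (adjusted p = 0.0251), with adjusted p of 0.0837 and 0.0764 without untreated replicates 1 and 2, and 0.0787 and 0.0765 without 4EGI-1 replicates 2 and 3. Taf10 fell by 0.29 ± 0.07 (adjusted p = 0.0158), with 0.06 without untreated replicate 3 and 0.0501 without 4EGI-1 replicate 1. The Taf10 call also ended with its probe sets averaged. Taf5, a scaffold of the TFIID core that was nevertheless placed in the other class, was at -0.06 (adjusted p = 0.625). Taf7l (0.21) and Taf9b (0.21) did not pass, and their mean untreated signals of 4.52 and 4.48 were near the lower end of the array.

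Of the 4 TAFs of SL1, the promoter factor of RNA polymerase I, 1 rose and 3 did not pass on their brightest probe set. Taf1a read 9.42, 9.20 and 9.54 untreated and 10.07, 9.80 and 10.11 treated, a rise of 0.60 ± 0.11 (SE; adjusted p = 0.00543). Taf1b (0.17; adjusted p = 0.0725), Taf1c (0.04) and Taf1d (-0.04) did not pass, but 4 of the 6 probe sets of Taf1d fell and the mean of all 6 was lower (-0.49; adjusted p = 0.000606). The TAF paralogues of the SAGA coactivator, Taf5l (-0.01) and Taf6l (-0.11), the RNA-binding protein gene Taf15 (0.01) and Taf7l2 (-0.21) did not pass either.

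For 8 members the array holds several probe sets, and the value given is that of the brightest. Both probe sets of Taf13 (-0.72 and -0.91), Polr2h (-0.68 and -0.40) and Polr1d (-0.33 and -0.39) fell. For Polr2c the second probe set was at -0.07 (adjusted p = 0.627 over probe sets), and for Taf10 it was at 0.14 (adjusted p = 0.236). With probe sets averaged per gene, Polr2c (-0.15; adjusted p = 0.13) and Taf10 (-0.08; adjusted p = 0.451) no longer passed. The second probe set of Polr3e rose by 0.51 ± 0.12 (SE; adjusted p = 0.0153).

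Taf1d disagreed most among its probe sets. The brightest was at -0.04 ± 0.06 (SE), the second rose by 0.31 ± 0.08 (adjusted p = 0.0218 over probe sets), and the other 4 fell, by 0.94, 0.89, 0.73 and 0.65. The third brightest read 10.17, 10.15 and 10.04 untreated and 9.19, 9.09 and 9.25 treated. RefSeq places 6 small nucleolar RNA genes inside Taf1d, and which transcripts its probe sets measure was not tested.

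**Figure D5:**
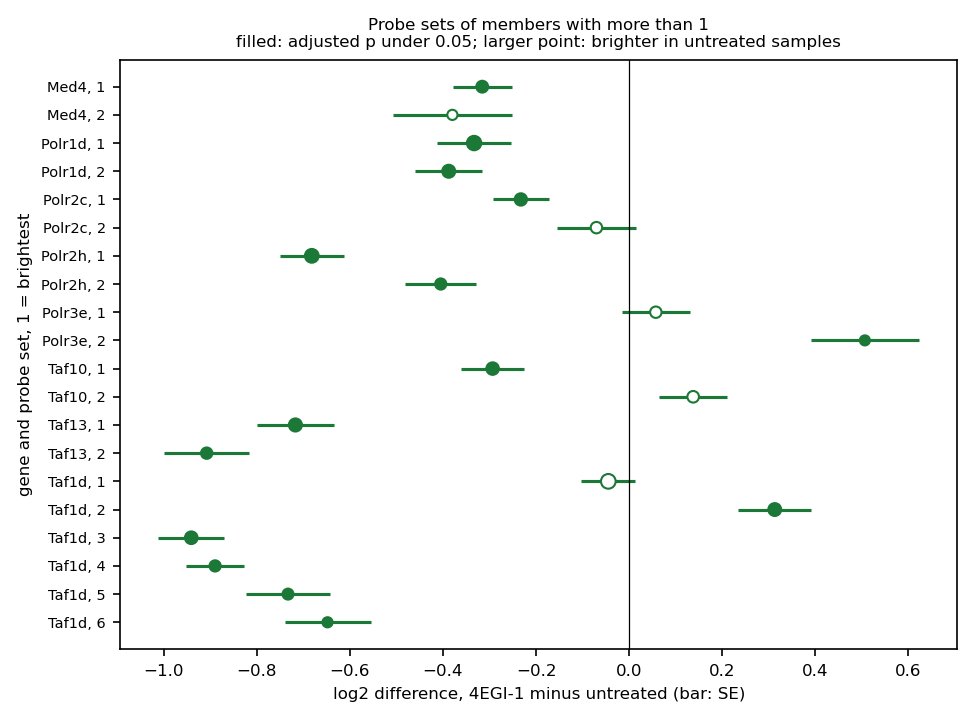
Log2 difference (x axis, with the standard error) of every probe set of the 8 members with more than 1, numbered from the brightest (y axis); filled points had an adjusted p under 0.05 and larger points are brighter in untreated samples. The probe sets of Taf1d range from -0.94 to 0.31, while both of Taf13, Polr2h and Polr1d fell.

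Factors that work with these complexes were taken from lists of known components. Their counts are read against the 11.5% higher and 11.5% lower over all genes. Of 18 general transcription factors of RNA polymerase II, 1 rose (5.56%), 2 fell (11.1%) and 15 did not pass (median -0.02). Gtf2e1 of TFIIE rose by 0.46 ± 0.07 (SE; adjusted p = 0.00157). The TFIIH genes Gtf2h5, its smallest subunit, and Ccnh, the cyclin of its kinase, fell by 0.59 ± 0.08 (adjusted p = 0.000996) and 0.34 ± 0.07 (adjusted p = 0.0079).

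Of 27 elongation and pausing factors, 8 rose (29.6%), 4 fell (14.8%) and 15 did not pass (median 0.07). The share that fell was near the 11.5% over all genes. Ctr9, the scaffold of the PAF complex, rose by 0.96 ± 0.11 (SE; adjusted p = 0.000503), the histone chaperone gene Supt6 by 0.86 ± 0.07 (adjusted p = 0.000159) and Ccnt1, the cyclin of P-TEFb, by 0.54 ± 0.06 (adjusted p = 0.000505). The P-TEFb kinase gene Cdk9 fell by 0.26 ± 0.08 (adjusted p = 0.0455), its inhibitor Hexim1 by 0.34 ± 0.09 (adjusted p = 0.0245) and the pausing factor genes Nelfe and Nelfb by 0.36 ± 0.06 (adjusted p = 0.00433) and 0.28 ± 0.08 (adjusted p = 0.0392).

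Of 16 factors of RNA polymerase III, 3 rose (18.8%), 5 fell (31.2%) and 8 did not pass (median -0.04). Gtf3c1, the largest subunit of TFIIIC, rose by 0.81 ± 0.08 (SE; adjusted p = 0.000251), as did Gtf3c3 of the same factor, by 0.27 ± 0.07 (adjusted p = 0.0321). Its subunit gene Gtf3c6 fell by 0.23 ± 0.06 (adjusted p = 0.0241), and Gtf3c4 (0.06) and Gtf3c5 (0.20) did not pass. Maf1, the repressor of RNA polymerase III, fell by 0.30 ± 0.06 (adjusted p = 0.00774). Snapc5 and Snapc4, subunits of the same snRNA promoter factor, differed by -0.77 ± 0.10 (adjusted p = 0.000985) and 0.28 ± 0.06 (adjusted p = 0.0126), and Gtf3a, which encodes TFIIIA, fell by 0.66 ± 0.09 (adjusted p = 0.000968). Of 4 RNA polymerase I factors the termination factor gene Ttf1 rose, by 0.66 ± 0.08 (adjusted p = 0.000611), and 3 did not pass. Among 15 SAGA and ATAC coactivator subunits 4 rose (26.7%), 3 fell (20%) and 8 did not pass (median -0.01). Trrap, the very large activator-binding subunit, rose by 0.70 ± 0.07 (adjusted p = 0.000261), the core subunit gene Supt20 by 0.35 ± 0.06 (adjusted p = 0.00344), the ubiquitin protease gene Usp22 by 0.39 ± 0.08 (adjusted p = 0.00926) and Supt7l by 0.31 ± 0.06 (adjusted p = 0.00963). The acetyltransferase gene Kat2b fell by 0.36 ± 0.08 (adjusted p = 0.0107), Eny2, a small subunit of the deubiquitinase module, by 0.24 ± 0.06 (adjusted p = 0.0162), and Sgf29, a reader of methylated histone H3, by 0.22 ± 0.07 (adjusted p = 0.0472).

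Markers of the labelled cell type were present. Of 10 T-cell markers measured (of 11 listed), all 10 lay above the median gene, from 6.90 to 12.47 in untreated samples, and 4 fell (Cd3e, Cd3d, Zap70 and Ptcra). The others did not pass. Cd4 went the other way, at 0.20 (limma adjusted p = 0.0797), while Cd8a (-0.20), Thy1 (-0.19), Cd3g (-0.14), Cd5 (-0.10) and Cd247 (-0.04) had negative differences. The summed level of the 10 T-cell markers was 14.66 to 14.69 untreated and 14.42 to 14.45 treated. Of 4 B-cell markers (4.33 to 6.73) and 3 erythroid markers (6.14 to 7.13) 0 passed in limma, and of 5 myeloid markers (5.03 to 6.78) 1 rose, Cd68, with summed levels of 8.49 to 8.54 untreated and 8.53 to 8.58 treated. Of 5 stromal and endothelial markers 0 passed, and 4 of them lay above the median gene. In the 3 lists where 0 markers passed, 1 was lower at an unadjusted limma p under 0.05, the erythroid Epor. The part of these shifts in the results above was not tested. Pairs of arrays from the same group had correlations of 0.996 to 0.997, and pairs across groups 0.988 to 0.990.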

How the data were processed

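The authors deposited a log2 signal for each probe set on each of 6 arrays; the submitters' processing notes name RMA without settings. RMA brings arrays to a common distribution, so a value is relative to its own array. Sample titles gave the groups. A single gene symbol was annotated for 21640 of 34760 probe sets. For 21553 of these the Entrez identifier was found in a RefSeq table (GRCm38.p6), from which the symbol was taken. Keeping the brightest probe set of each symbol left 19937 genes. Another 3 probe sets list a member beside a different gene (Taf9, Med20 or Polr2k) and were not used.

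The model was limma's (version 3.58.1, R 4.3.3; lmFit, then eBayes), fitted to all genes without a filter, with Benjamini-Hochberg adjustment over all of them and a call at an adjusted p under 0.05. Standard errors are moderated, with 8.15 degrees of freedom. The submitters describe biological replicates, all of 1 clone, so p-values measure the spread between these samples. The procedure was tested on simulated data.

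Members, size classes and lists were chosen with earlier results of these data known, among them lower values of many genes for short proteins, so the contrast of classes is no independent evidence. Genes were named by rule: large subunits, members that passed (sample values for the 12 largest changes each way), members whose probe sets passed in opposite directions, and up to 3 genes per direction of each pathway list by adjusted p. Other genes were chosen after their values were seen.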

Additional observations from a re-analysis of the deposited data

How the results depend on the processing

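Over the alternatives run, the counts of members that rose (13) and fell (30) stayed within 1.5 times of these values: 14 and 30 with the replicate number as a block, which ended no call of a member and added that of Med15, and 11 and 21 at an adjusted p under 0.01. Same-numbered samples showed little shared deviation (correlations 0.061, 0.107 and -0.021). No label says that a number marks a shared batch, so whether the numbers pair samples is not settled. Leaving out each sample gave 11 to 14 members higher and 24 to 28 lower, medians of 0.21 to 0.31 for large and -0.29 to -0.25 for other subunits, and differences of medians of 0.49 to 0.55, against 0.54 with all samples. Restricting the test to genes no dimmer than the median probe set gave a difference of medians of 0.60. Averaging the probe sets of each gene gave 0.46, and the median of the other subunits was -0.21. Of the 43 members that passed, 34 kept the call in every alternative except the stricter threshold, and the 9 that lost it are Med1, Med14, Polr1d, Polr2c, Polr2f, Polr3d, Taf3, Taf8 and Taf10. No member that passed under either setting changed sign. The causes were not tested. Splitting the subunits by protein length was not run, since no protein table was used here. Only 3 arrays per group limit the precision.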

Other observations

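RNA polymerase I has further small subunits whose genes carry older symbols on this array and so fell outside the symbol rule. Twistnb differed by 0.15 ± 0.07 (SE), Cd3eap by -0.20 ± 0.09 and Znrd1 by -0.17 ± 0.08, and none of these 3 passed in limma (adjusted p = 0.184, 0.134 and 0.209). Crcp, which encodes a small stalk subunit of RNA polymerase III, was at -0.23 ± 0.08 (adjusted p = 0.0662). Polrmt, the single-subunit mitochondrial RNA polymerase, was at 0.05 and Polr2m at -0.02, and neither passed.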
